A study of Mus musculus with 12 samples.

Results

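A set of 28 genes, of 12393 measured, was brighter by at least 1 log2 unit in Matrigel culture than in either of the other cultures of bipotential mouse embryonic liver (BMEL) cells. For each gene the probe set with the highest mean was read. A gene was taken where the mean of the 4 Matrigel arrays exceeded the mean of the 4 basal arrays and the mean of the 4 aggregate arrays by at least 1, with Matrigel above both in each cell line. A few genes were left out by name, of which Anxa10 (4.47 over basal and 2.03 over aggregates), Tnc (2.72 and 2.69) and Dlk1 (1.34 and 1.23) would have passed, as were symbols that start with Slc or Cyp. The same rule turned to basal culture took 243 genes and turned to aggregates took 168. The Matrigel differences of the 28 genes are thus the values that chose them, and they are given here as a description, with no test. Every gene past both differences was above both cultures in each line, so that condition removed none.

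BMEL lines are immortal cells that can take on features of hepatocytes or of bile duct cells. The independently isolated lines 9A1 and 14B3, from livers of dpc14 embryos of CBA/J x C57Bl/6J mice, were each grown in basal culture, as aggregates for 5 days, and in Matrigel for 10 days, except Matrigel_14B3 replicate 1, labelled as 5 days. Basal cultures carry no time in the labels. There were 2 arrays for each line in each culture, 6 groups in all. Each line stands for 1 isolate, so a difference between lines is a difference between these isolates. Time in culture differed between aggregates and most Matrigel cultures, so in these the gel and the time cannot be told apart. Only Matrigel_14B3 replicate 1 shares the 5 days of the aggregates, and 1 array gives no measure of spread.

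Matrigel is a basement membrane extract, rich in laminin and collagen IV, in which liver progenitor lines can form hollow or branched structures. Among the genes described here, small proline-rich proteins and involucrin are cross-linked into the tough envelope of squamous epithelia such as epidermis. Prolactin family hormones of rodents are made mostly by the placenta, adenosine deaminase breaks down adenosine, and gastrokines, caseins and pancreatic lipases are secreted products of stomach, mammary gland and pancreas.

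Values are log2 signal intensities, and the median per array was 8.064 to 8.135 over 22690 probe sets. Precision is limited by the small number of arrays. They are called biological duplicates but the labels do not say how the cultures were separated, and p-values therefore reflect the spread between these samples alone, which may be technical. A few liver and bile duct markers were read, which do not settle the identity of the cells. Hnf4a, a liver transcription factor, had means of 11.65, 12.59 and 12.20 in basal, aggregate and Matrigel culture. The bile duct keratin gene Krt19 had 13.59, 13.32 and 13.56. Albumin (Alb) had 8.08, 12.45 and 12.54. As a guide to background, 35 genes with expression mostly confined to other tissues had single-array values of 4.30 to 9.69. The 90th percentile of these values was 8.79. Of 22 measured hepatocyte genes, 13 had a mean over all arrays under 8.79, and the basal mean of Alb was under it too. Both the basal and the aggregate mean lay under 8.79 in 18 of the 28 genes, and the Matrigel mean too in 8 of them. A fold change from such a level is a ratio of measured intensities and may understate the change in RNA. In RNA from whole cultures, more cells of a kind and more RNA per cell cannot be told apart.

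The choosing differences ranged widely. Pnliprp2 lay 5.44 above basal and 3.22 above aggregates, Ada 3.69 and 3.70, Prl2a1 3.70 and 3.33, and Mcpt2 3.35 and 2.45. Just inside the threshold were Angptl4 (1.02 and 1.25), S100a14 (1.29 and 1.02) and Acta2 (1.04 and 1.17). Just outside were Ankrd44 (0.99 and 1.03), Col6a1 (0.96 and 1.00) and Serpinb9b (0.96 and 1.58). The median over the 28 genes was 1.84 over basal and 1.69 over aggregates, where the median of all genes was -0.04 and -0.10. In 20 of the 28 every Matrigel array lay above all 8 other arrays, which held for 0.557% of all genes, and nothing is read from that share because the same arrays chose the genes. The arrays overlapped in Fhl1, Bicc1, Ctla2a, Car8, Csn3, Nrep, Gkn2 and Acta2.

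**Figure D1:**
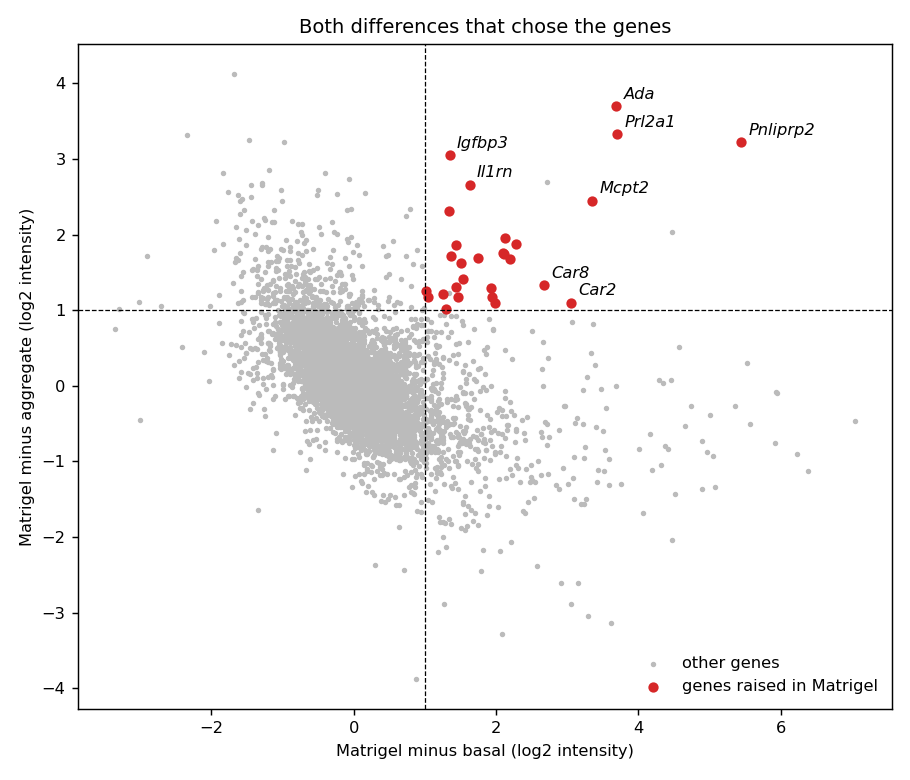
Each point is 1 of 12393 genes, with the mean difference of Matrigel from basal culture on the x axis and from aggregates on the y axis, both in log2 intensity. Red points are the 28 genes past 1 on both axes (dashed lines), and Ada, Prl2a1, Pnliprp2 and Mcpt2 lie farthest into that corner. Grey points in the corner were left out by name.

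**Figure D2:**
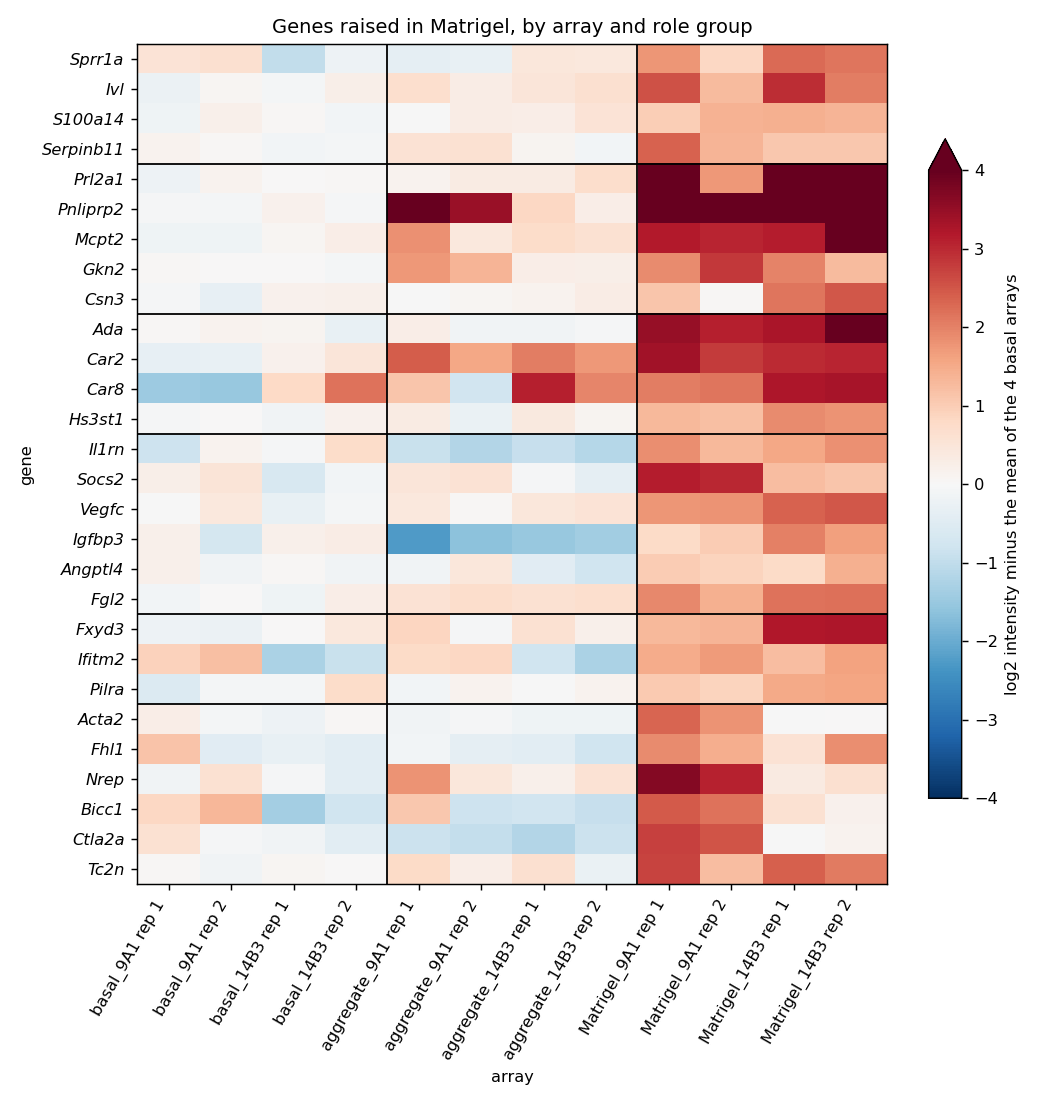
Rows are the 28 genes in 6 groups of role, columns the 12 arrays, and colour is log2 intensity minus the mean of the 4 basal arrays, with values over 4 at the darkest red. The 4 Matrigel columns are red in most rows. Acta2, Nrep, Bicc1 and Ctla2a are red mainly in the 9A1 arrays, and Pnliprp2, Car2 and Car8 are also red in some aggregate arrays.

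Squamous barrier genes made up 4 of the 28: Sprr1a, Ivl, S100a14 and Serpinb11. In what follows the 4 values of a culture are given in the order 9A1 replicate 1, 9A1 replicate 2, 14B3 replicate 1 and 14B3 replicate 2. Sprr1a (Entrez Gene 20753), a small proline-rich envelope protein, had log2 intensities of 11.56, 11.67, 10.04 and 10.81 in basal culture, 10.66, 10.72, 11.46 and 11.45 in aggregates and 12.79, 11.84, 13.28 and 13.16 in Matrigel. All Matrigel arrays were above the others, though Matrigel_9A1 replicate 2 at 11.84 was close to the higher basal array of 9A1 at 11.67. Ivl (Entrez Gene 16447), involucrin, had 6.25, 6.58, 6.40 and 6.72 in basal culture, 7.15, 6.78, 6.96 and 7.14 in aggregates and 9.03, 7.74, 9.45 and 8.53 in Matrigel. The Matrigel mean of Ivl was 4.59-fold over basal and 3.21-fold over aggregates, and both lines passed 1 log2 unit. S100a14, of the S100 calcium-binding proteins, lay at 7.05 to 7.42, 7.19 to 7.74 and 8.19 to 8.63 in the 3 cultures, and Serpinb11, a clade B serpin, at 7.06 to 7.32, 7.06 to 7.77 and 8.23 to 9.52. In none of the 4 genes did the Matrigel arrays overlap with the others.

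Sprr1a, Ivl and S100a14 lie in 1 stretch of chromosome 3 that also carries other envelope and S100 genes. Of 19 genes measured from S100a14 to Ivl, these 3 were the only ones past 1 over both cultures. The neighbouring envelope genes differed less: Sprr1b lay -0.08 from basal and -0.23 from aggregates, Sprr3 0.05 and -0.01, and loricrin (Lor) -0.06 and -0.19. Their Matrigel means of 6.18, 7.03 and 8.44 were under the 90th percentile of the background guide. The Matrigel means of the barrier genes Ivl, S100a14 and Serpinb11 were under it too, and that of Sprr1a was above it. S100a16, at a Matrigel mean of 11.99, differed by 0.11 and 0.48. Just outside the stretch, next to S100a14, S100a13 lay at 0.99 and 0.32 and S100a1 at 1.46 and -0.28. Of the 7 other measured Sprr genes 0 were higher than both cultures by limma (0 at unadjusted p below 0.05).

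**Figure D3:**
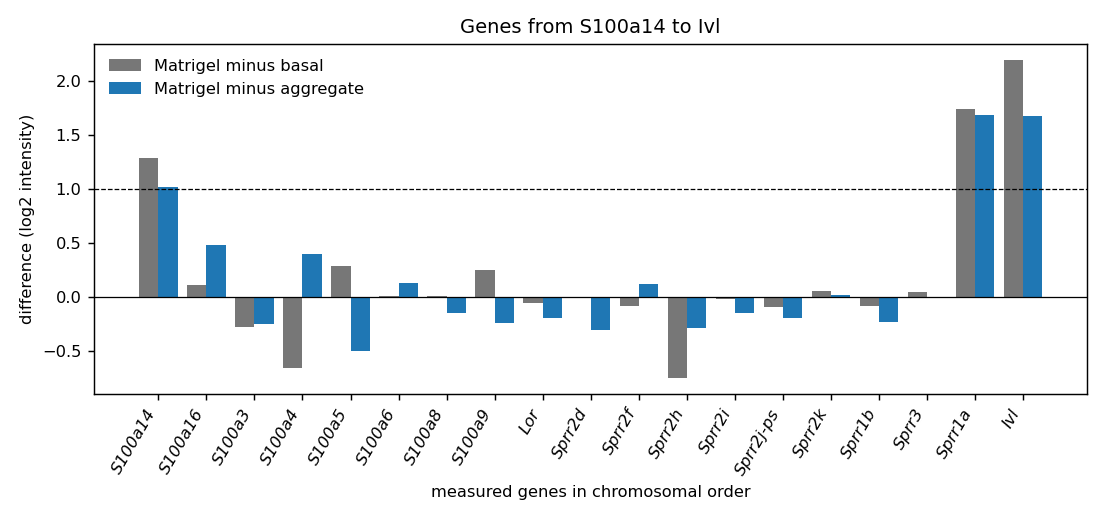
Bars are the mean log2 differences of Matrigel from basal culture (grey) and from aggregates (blue) for the 19 measured genes from S100a14 to Ivl, in chromosomal order. S100a14 at the left and Sprr1a and Ivl at the right pass the dashed line at 1 in both bars, and the genes between them do not.

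The promoters of the barrier genes are shown because they share a letter pattern. The AP-1 pattern TGANTCA, searched on both strands in RefSeq promoter windows (GRCm38.p6, 250 bases before to 50 after a start), was present for Sprr1a, Ivl, Serpinb11, Il1rn, Fgl2 and Ctla2a, 6 of the 19 genes with a window. It was in 7 of the 24 windows of these genes and in 7.81% of all 32851 windows. The pattern TATAAA, on the gene's own strand, was in Sprr1a, Ivl, Gkn2 and Ctla2a and in 8.32% of all windows. Capitals mark AP-1 and TATA letters in the 250 bases before each start, 5′ to 3′ on the gene's strand.
Sprr1a, chr3:92485882-92486131, minus strand: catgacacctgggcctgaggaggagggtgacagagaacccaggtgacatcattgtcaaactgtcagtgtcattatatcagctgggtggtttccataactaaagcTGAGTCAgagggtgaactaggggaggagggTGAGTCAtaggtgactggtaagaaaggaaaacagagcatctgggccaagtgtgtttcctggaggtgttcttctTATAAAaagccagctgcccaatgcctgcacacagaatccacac
Ivl, chr3:92573736-92573985, minus strand: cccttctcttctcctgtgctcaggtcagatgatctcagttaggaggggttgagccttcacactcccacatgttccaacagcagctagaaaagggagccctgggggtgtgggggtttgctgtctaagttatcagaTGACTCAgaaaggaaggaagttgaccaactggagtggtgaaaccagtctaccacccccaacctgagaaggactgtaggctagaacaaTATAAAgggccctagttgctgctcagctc
Serpinb11, chr1:107362064-107362313, plus strand: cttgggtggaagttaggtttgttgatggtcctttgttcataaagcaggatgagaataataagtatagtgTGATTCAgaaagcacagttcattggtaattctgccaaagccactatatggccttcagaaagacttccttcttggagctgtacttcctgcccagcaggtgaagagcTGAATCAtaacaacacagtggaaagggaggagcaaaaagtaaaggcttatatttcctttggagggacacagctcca
Il1rn, chr2:24336610-24336859, plus strand: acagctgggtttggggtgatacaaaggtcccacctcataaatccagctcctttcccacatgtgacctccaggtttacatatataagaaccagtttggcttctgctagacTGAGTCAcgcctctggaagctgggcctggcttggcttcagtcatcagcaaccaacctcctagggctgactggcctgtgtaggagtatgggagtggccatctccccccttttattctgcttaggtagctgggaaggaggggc

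These matches are letters in a window and not sites of binding, which these arrays do not measure. Sprr1a and Serpinb11 each hold the AP-1 letters in 2 places, and Ivl and Il1rn in 1. The windows of Il1rn at starts farther downstream, which are not printed, did not hold them. Of the other patterns searched on both strands, the STAT pattern TTCNNNGAA was found for Ada, Prl2a1, Fgl2 and Ctla2a (8.3% of all windows), the TEAD pattern CATTCC for 4 genes (14.7%) and the GATA pattern AGATAA for 3 (11.2%). S100a14 had no window in the table.

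Secreted hormone, milk and digestive proteins were 5 genes: Prl2a1, Pnliprp2, Mcpt2, Gkn2 and Csn3. Prl2a1 (Entrez Gene 56635), a prolactin family hormone of placenta, had log2 intensities of 7.43, 7.80, 7.67 and 7.69 in basal culture, 7.80, 7.96, 7.97 and 8.34 in aggregates and 11.77, 9.37, 12.14 and 12.10 in Matrigel. The other 3 Matrigel arrays were at 11.77 to 12.14, and Matrigel_9A1 replicate 2 at 9.37 was still above every other array. Pnliprp2 (Entrez Gene 18947), a pancreatic lipase relative that splits galactolipids, had 6.01, 6.00, 6.24 and 6.04 in basal culture, 10.43, 9.51, 6.90 and 6.34 in aggregates and 11.69, 11.10, 11.82 and 11.43 in Matrigel. Its Matrigel mean was 43.4-fold over basal, and the aggregates differed by line, with 9A1 at 9.51 and 10.43 and 14B3 at 6.34 and 6.90.

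Mcpt2 (Entrez Gene 17225), a chymase known from mucosal mast cells, had 8.05, 8.04, 8.28 and 8.48 in basal culture, 10.05, 8.62, 8.94 and 8.81 in aggregates and 11.39, 11.26, 11.35 and 12.24 in Matrigel. Matrigel_14B3 replicate 2 was highest, and the lowest Matrigel array at 11.26 was above the highest aggregate array at 10.05. Among mast and blood cell genes, Cpa3, a mast cell carboxypeptidase, had means of 7.44, 7.65 and 7.51 in basal, aggregate and Matrigel culture, and Ptprc 5.59, 6.01 and 5.84. Kit, a receptor of mast and stem cells, was at 7.78 and 7.67 in the Matrigel arrays of 14B3 and at 6.98 to 7.34 in the other arrays of that line. Within Matrigel Kit was higher in 14B3 than in 9A1 by 0.77 (adjusted p = 0.0127 by limma), where 9A1 had 6.79 and 7.11. Of 29 measured haematopoietic genes 1, Cd68, was called higher in Matrigel than in both (0.46 and 0.72), and 27 had a mean under 8.79. The summed log2 level of the 29 was 12.23 to 12.41 in basal arrays, 12.46 to 13.05 in aggregates and 12.24 to 12.63 in Matrigel. The part of such cells in the value of Mcpt2 was not tested. The 3 other measured Mcpt genes did not follow. Mcpt1 lay at 0.08 and -0.05, Mcpt4 at 0.40 and 0.10 and Mcpt8 at -1.35 and -0.09 from basal and aggregates. The means of Mcpt1 and Mcpt4 were under the 90th percentile of the background guide in every culture.

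Gkn2, a gastrokine of stomach mucus cells, had 8.36, 8.33, 8.30 and 8.21 in basal culture, 10.02, 9.65, 8.55 and 8.54 in aggregates and 10.18, 11.12, 10.29 and 9.56 in Matrigel. The aggregates of 9A1 at 9.65 and 10.02 reached into the Matrigel range of 14B3 but lay below both Matrigel arrays of 9A1. Those of 14B3 at 8.54 and 8.55 lay below all Matrigel arrays. Csn3, the milk protein kappa-casein, had 8.22, 7.93, 8.42 and 8.44 in basal culture, 8.24, 8.34, 8.38 and 8.54 in aggregates and 9.35, 8.29, 10.38 and 10.73 in Matrigel. Both 14B3 Matrigel arrays were at 10.38 and 10.73, while Matrigel_9A1 replicate 2 at 8.29 lay among the other cultures. A different Csn3 probe set, at 5.57 to 5.67 in the 3 cultures, differed by -0.05 and -0.10 only.

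Enzymes were Ada, Hs3st1 and Car2, with the inactive carbonic anhydrase relative Car8. Ada (Entrez Gene 11486), adenosine deaminase, had 6.15, 6.22, 6.20 and 5.79 in basal culture, 6.36, 5.95, 5.96 and 6.03 in aggregates and 9.57, 9.21, 9.36 and 10.97 in Matrigel. The 8 arrays of the other cultures lay within 5.79 to 6.36 and the Matrigel arrays at 9.21 to 10.97, 12.9-fold over basal on average. Car2 (Entrez Gene 12349), which hydrates CO2, had 9.19, 9.23, 9.70 and 10.00 in basal culture, 11.96, 11.08, 11.58 and 11.27 in aggregates and 12.88, 12.34, 12.52 and 12.57 in Matrigel. It was lowest in basal and highest in Matrigel arrays in both lines, and aggregate and Matrigel arrays did not overlap. Car8 had 5.68, 5.64, 7.95 and 9.31 in basal culture, 8.25, 6.38, 10.25 and 9.10 in aggregates and 9.19, 9.28, 10.39 and 10.45 in Matrigel. In 14B3 its aggregate replicate 1 at 10.25 came close to Matrigel and replicate 2 at 9.10 did not, and in 9A1 basal arrays were lowest. Hs3st1, a heparan sulfate sulfotransferase, lay at 8.08 to 8.40, 7.96 to 8.62 and 9.44 to 10.10 in the 3 cultures.

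The promoters of Ada and Prl2a1, the genes that mark the set, are printed because both hold the STAT letters, shown in capitals.
Ada, chr2:163750240-163750489, minus strand: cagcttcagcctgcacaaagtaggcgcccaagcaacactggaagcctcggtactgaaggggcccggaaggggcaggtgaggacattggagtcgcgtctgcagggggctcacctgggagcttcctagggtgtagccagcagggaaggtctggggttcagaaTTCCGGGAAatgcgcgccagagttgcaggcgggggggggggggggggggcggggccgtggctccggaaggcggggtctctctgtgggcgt
Prl2a1, chr13:27801405-27801654, plus strand: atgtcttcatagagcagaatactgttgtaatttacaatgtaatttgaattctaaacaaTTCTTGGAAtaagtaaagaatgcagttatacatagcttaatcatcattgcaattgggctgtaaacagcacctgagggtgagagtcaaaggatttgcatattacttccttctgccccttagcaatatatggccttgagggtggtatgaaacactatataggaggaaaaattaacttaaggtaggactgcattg
Each holds the letters in 1 place before the start, and neither holds the AP-1 or the TATA letters searched for above.

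**Figure D4:**
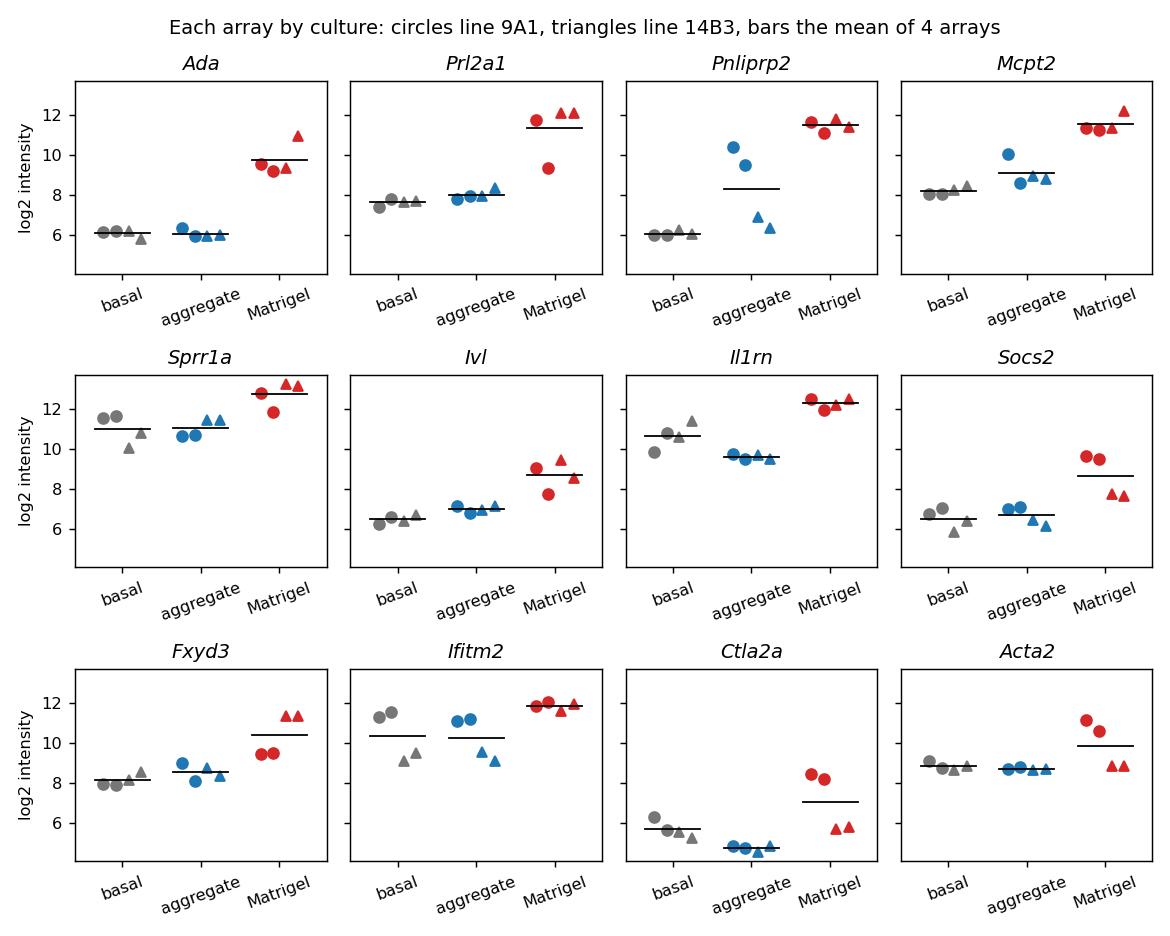
Log2 intensity of 12 of the genes in each of the 12 arrays, by culture, with circles for 9A1, triangles for 14B3 and bars for the mean of 4 arrays. Ada is flat in basal and aggregate arrays (5.79 to 6.36) and at 9.21 to 10.97 in Matrigel. Ctla2a and Acta2 are high only in the 9A1 Matrigel arrays, and Ifitm2 is low in the 14B3 basal and aggregate arrays.

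Growth factor and cytokine genes were 6: Il1rn, Socs2, Vegfc, Igfbp3, Angptl4 and Fgl2. In all 6 the Matrigel arrays lay above every other array. Il1rn (Entrez Gene 16181), the secreted antagonist of the interleukin 1 receptor, had 9.84, 10.79, 10.61 and 11.39 in basal culture, 9.77, 9.49, 9.72 and 9.51 in aggregates and 12.52, 11.94, 12.20 and 12.49 in Matrigel. Aggregates were lowest, and its other probe sets gave 2.10 and 2.63 and 1.43 and 3.05 over basal and aggregates. Igfbp3 (Entrez Gene 16009), a carrier of insulin-like growth factors, had 9.11, 8.20, 9.10 and 9.19 in basal culture, 6.63, 7.26, 7.39 and 7.51 in aggregates and 9.66, 9.90, 10.90 and 10.53 in Matrigel. It was 8.27-fold over aggregates and 2.54-fold over basal.

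Socs2 (Entrez Gene 216233), a feedback inhibitor of growth hormone and cytokine receptors, had 6.75, 7.04, 5.87 and 6.40 in basal culture, 6.99, 7.10, 6.47 and 6.17 in aggregates and 9.67, 9.52, 7.75 and 7.64 in Matrigel. Matrigel arrays of 9A1 were higher than those of 14B3, and both were above their own line's other cultures. Vegfc, a growth factor for lymphatic vessels, had 6.81, 7.24, 6.54 and 6.74 in basal culture, 7.26, 6.87, 7.29 and 7.38 in aggregates and 8.60, 8.64, 9.20 and 9.33 in Matrigel. The Matrigel arrays of 14B3 were the highest. Fgl2, a fibrinogen-like protein with prothrombinase activity, lay at 4.58 to 5.00, 5.31 to 5.45 and 6.16 to 6.93, and Angptl4, an inhibitor of lipoprotein lipase, at 10.01 to 10.36, 9.34 to 10.61 and 10.91 to 11.57. Of the 6 other measured Socs genes and the 7 others of the Igfbp family, 0 were higher than both cultures by limma (0 at unadjusted p below 0.05), although Igfbp7 and Igfbp4 lay 2.55 and 1.81 above aggregates.

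Membrane proteins were Fxyd3, Ifitm2 and Pilra, with no overlap between Matrigel and other arrays. Fxyd3 (Entrez Gene 17178), a regulator of the sodium pump, had 7.92, 7.89, 8.15 and 8.55 in basal culture, 8.99, 8.08, 8.74 and 8.33 in aggregates and 9.44, 9.49, 11.33 and 11.37 in Matrigel. The 14B3 Matrigel arrays at 11.33 and 11.37 stood well above the 9A1 ones. Ifitm2, an interferon-induced protein that restricts virus entry, had 11.28, 11.56, 9.09 and 9.47 in basal culture, 11.11, 11.18, 9.56 and 9.08 in aggregates and 11.84, 12.06, 11.58 and 11.95 in Matrigel. Line 9A1 was high in all cultures and 14B3 reached that level in Matrigel alone. Pilra, an inhibitory immunoglobulin-like receptor, lay at 6.28 to 7.56, 6.72 to 6.98 and 7.72 to 8.42. Its neighbouring relative Pilrb1 was 0.98 and 0.81 over basal and aggregates, and Ifitm3, close to Ifitm2, 0.89 and 0.82.

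Contractile and other intracellular proteins were Acta2, Fhl1, Nrep, Bicc1, Ctla2a and Tc2n, and Tc2n alone of these 6 showed no overlap. Acta2 (Entrez Gene 11475), smooth muscle actin, had 9.08, 8.74, 8.63 and 8.86 in basal culture, 8.68, 8.78, 8.64 and 8.67 in aggregates and 11.17, 10.62, 8.82 and 8.84 in Matrigel. The 14B3 Matrigel arrays were level with the other cultures, so the mean difference came from 9A1. Ctla2a (Entrez Gene 13024), an inhibitor of cysteine proteases, had 6.30, 5.65, 5.54 and 5.25 in basal culture, 4.83, 4.73, 4.52 and 4.82 in aggregates and 8.43, 8.20, 5.68 and 5.81 in Matrigel. Nrep, a small protein found in regenerating nerve and in myofibroblasts, had 6.90, 7.65, 6.98 and 6.63 in basal culture, 8.84, 7.49, 7.25 and 7.62 in aggregates and 10.70, 10.11, 7.40 and 7.68 in Matrigel. In both, the 9A1 Matrigel arrays stood above all others.

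Bicc1, an RNA-binding protein of kidney and bile duct tubules, had 10.18, 10.70, 7.99 and 8.56 in basal culture, 10.45, 8.52, 8.60 and 8.43 in aggregates and 11.82, 11.54, 9.98 and 9.52 in Matrigel. Line 9A1 was the higher line in basal and Matrigel arrays. Fhl1, a LIM domain protein of muscle, had 9.83, 8.24, 8.39 and 8.27 in basal culture, 8.57, 8.33, 8.27 and 7.89 in aggregates and 10.56, 10.15, 9.26 and 10.54 in Matrigel. Basal_9A1 replicate 1 at 9.83 was above Matrigel_14B3 replicate 1 at 9.26 but below both Matrigel arrays of its own line. Tc2n, a protein with tandem C2 domains, lay at 4.43 to 4.65, 4.31 to 5.32 and 5.80 to 7.26. The other Acta2 probe set, at 5.46 to 5.75, differed by 0.07 and -0.22 and did not show the pattern.

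Some fibroblast genes were also higher in the 9A1 Matrigel arrays, as Acta2, Nrep and Ctla2a were. Col1a1 had 8.82 in Matrigel_9A1 against 7.53 in Matrigel_14B3, a difference of -1.28 (adjusted p = 0.0155 by limma). Col3a1 had 7.25 against 5.26 (-1.99, 0.0208). The collagen genes Col1a2 (-0.34, 0.561) and Col6a3 (0.01, 0.999) did not pass this test. Of 20 measured fibroblast and stellate cell genes other than Acta2, 2 (Col1a1 and Col3a1) were called higher in Matrigel than in both other cultures. Counted with Acta2, 20 of 21 had a mean over all arrays under 8.79. With Acta2, their summed log2 level was 12.27 to 12.51 in Matrigel_9A1, 11.57 to 11.77 in Matrigel_14B3, 11.65 to 11.76 in basal arrays and 11.69 to 11.95 in aggregates. Acta2 was itself chosen on these arrays, with means of 10.90 in Matrigel_9A1 and 8.83 in Matrigel_14B3. The sum therefore holds the chosen gene, and nothing is read from its difference between the lines. The fibroblast markers Pdgfra, Dcn and Lum had Matrigel means of 7.11, 7.49 and 6.11 and differed between lines within Matrigel by 0.11, -0.10 and -0.03. The part of such cells in the values of Acta2, Nrep and Ctla2a was not tested.

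Whether the 28 genes also moved in the aggregates was read from the difference between aggregates and basal culture, whose direction the choice of genes does not set. Of the 28, 8 (28.6%) were higher in aggregates, where 22.9% of all genes were, and 3 (10.7%) were lower, where 23.4% were. These shares were not tested against each other. The median was 0.22 over the 28 genes and 0.10 over all genes. Pnliprp2 rose by 2.22 ± 0.21 (SE, 4 against 4 arrays, adjusted p = 2.91e-06) and Car2 by 1.94 ± 0.18 (adjusted p = 3.14e-06). Gkn2 (0.89, adjusted p = 0.00294), Mcpt2 (0.89, 0.0149) and Fgl2 (0.64, 0.00125) rose too. Igfbp3 fell by 1.70 (adjusted p = 1.61e-05), Il1rn by 1.04 (0.00232) and Ctla2a by 0.96 (0.000156). For these 3 genes the level was lowest in aggregates, and for Pnliprp2, Car2, Gkn2, Mcpt2 and Fgl2 the aggregates lay between basal and Matrigel culture.

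Car8, Nrep and Vegfc completed the 8, at 1.35 (adjusted p = 0.0129), 0.76 (0.0371) and 0.37 (0.029), and each call rested on single arrays. Car8 was not called without basal_14B3 replicate 1 or aggregate_14B3 replicate 1 (0.0619 and 0.0581). Nrep was not called without basal_9A1 replicate 1, either basal_14B3 array, aggregate_9A1 replicate 1 or aggregate_14B3 replicate 2 (0.0507 to 0.147), nor with the mean of its probe sets. Vegfc was not called without replicate 1 of basal_9A1, basal_14B3 or aggregate_9A1, nor without replicate 2 of aggregate_14B3 (0.0769 to 0.143), nor with quantile normalization. In the other direction, Prl2a1 (0.37, adjusted p = 0.439), Ivl (0.52, 0.134) and Serpinb11 (0.29, 0.184) were called without either Matrigel_9A1 array (0.0231, 0.046 and 0.0196), Fxyd3 (0.41, 0.0845) at 0.64 without aggregate_9A1 replicate 2 (0.00304), Bicc1 (-0.36, 0.398) at -0.84 without aggregate_9A1 replicate 1 (0.00346) and Fhl1 (-0.42, 0.32) at -0.82 without basal_9A1 replicate 2 (0.0256). The number higher went from 8 to 5 without basal_14B3 replicate 1. Ada lay at -0.02 ± 0.27 (adjusted p = 0.967) and Sprr1a at 0.05 ± 0.20 (0.842). With the replicate block S100a14 was called as well (0.26, adjusted p = 0.0336).

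The lines were compared over all cultures, as a description, because the Matrigel arrays that chose the genes enter this difference. By limma 9 of the 28 genes were lower in 14B3 than in 9A1 and 4 were higher, where 3.45% and 2.57% of all genes were called in these directions, and nothing is read from these shares. The lower genes were Bicc1 (-1.69 ± 0.27, SE, 6 against 6 arrays), Ifitm2 (-1.38 ± 0.12), Nrep (-1.36), Socs2 (-1.13), Ctla2a (-1.09), Pnliprp2 (-1.00), Acta2 (-0.77), Gkn2 (-0.70) and Serpinb11 (-0.53). The higher were Car8 (2.17 ± 0.32), Fxyd3 (0.78), Csn3 (0.75) and Igfbp3 (0.64). In some of them the Matrigel arrays carried the difference. Acta2 had 8.91 in 9A1 and 8.74 in 14B3 in basal culture, 8.73 and 8.66 in aggregates and 10.90 and 8.83 in Matrigel. Csn3 had 8.08 and 8.43, 8.29 and 8.46, and 8.82 and 10.56. In others the lines also stood apart outside the gel. Ifitm2 had 11.42 and 9.28 in basal culture and 11.14 and 9.32 in aggregates, and Car8 had 5.66 and 8.63, and 7.32 and 9.68. The calls of Gkn2, Serpinb11 and Igfbp3 rested on single arrays. Gkn2 was not called on leaving out any array but aggregate_9A1 replicate 2, either Matrigel_9A1 array or Matrigel_14B3 replicate 1. Serpinb11 was called only on leaving out a Matrigel_9A1 array, and Igfbp3 only on leaving out basal_9A1 replicate 1, aggregate_9A1 replicate 2 or Matrigel_14B3 replicate 2. The Igfbp3 call also ended with array weights.

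Within Matrigel alone, 5 genes were lower in 14B3 by limma (2.41% of all genes) and 2 higher (1.36%). These are arrays that chose the genes, and a gene could be chosen through the line where it was high, so nothing is read from these shares. Nrep differed by -2.86 ± 0.38 (SE, 2 against 2 arrays), Ctla2a by -2.57 ± 0.21, Acta2 by -2.06 ± 0.18, Bicc1 by -1.93 ± 0.46 and Socs2 by -1.90 ± 0.19. Fxyd3 differed by 1.89 ± 0.25 and Csn3 by 1.74 ± 0.27. The 4 of these 7 genes that were grouped above as contractile and other intracellular proteins were all higher in 9A1, as was Socs2. The Bicc1 call ended without any 1 array of 14B3 or of Matrigel_9A1, and with array weights. Without Matrigel_9A1 replicate 1, Prl2a1 went from 1.55 to 2.75 and Sprr1a from 0.90 to 1.38, which made 4 genes called higher in 14B3. Ada went from 0.77 to 1.58 without Matrigel_14B3 replicate 1, the array labelled 5 days, and Serpinb11 from -0.79 to -1.29 without Matrigel_9A1 replicate 2.

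The size of the Matrigel response in each line is likewise a description, since the means over both lines chose the genes and 1 line could carry a gene past the threshold. By limma's interaction test the response differed between the lines in 5 of the 28 genes (0.912% of all genes in either response). From basal culture, 2 genes responded more in 14B3 (0.339%) and 2 less (0.347%), and from aggregates it was again 2 (0.194%) and 2 (0.226%). Nothing is read from these shares. Ifitm2 responded more in 14B3 by 1.95 ± 0.29 (SE) from basal and by 1.63 ± 0.29 from aggregates, and its Matrigel levels in the lines were 11.95 and 11.77. Pnliprp2 responded more in 14B3 from aggregates by 3.59 ± 0.42, with 9A1 aggregates at 9.97 on average against 6.62, and from basal by 0.10 ± 0.42. Sprr1a responded more in 14B3 from basal by 2.09 ± 0.40, with a lower basal mean of 10.43 against 11.62. Ctla2a responded less in 14B3, by -1.99 ± 0.29 from basal and by -2.46 ± 0.29 from aggregates. Acta2 did so by -1.90 ± 0.26 and -1.99 ± 0.26. In Ctla2a and Acta2 the lines were far apart in Matrigel, and in Ifitm2 and Pnliprp2 outside the gel.

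Single arrays changed several of these values. The Sprr1a call ended without any 1 array but basal_14B3 replicate 2, either aggregate_9A1 array or Matrigel_9A1 replicate 1. That of Ifitm2 from aggregates ended without aggregate_9A1 replicate 2, aggregate_14B3 replicate 2, either Matrigel_9A1 array or Matrigel_14B3 replicate 2. Without Matrigel_9A1 replicate 1 the difference in response of Prl2a1 went from 1.48 to 2.69 from basal and from 1.28 to 2.48 from aggregates, that of Csn3 from 1.38 to 1.91 and from 1.57 to 2.10, and 4 genes were then called as responding more in 14B3 from basal. Without Matrigel_14B3 replicate 1 that of Ada went from 0.97 to 1.77 and from 0.94 to 1.74. Without aggregate_9A1 replicate 1, Nrep went from -2.13 to -2.81 and Bicc1 from -0.96 to -1.93 from aggregates, so that 4 genes were then called as responding less in 14B3.

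**Figure D5:**
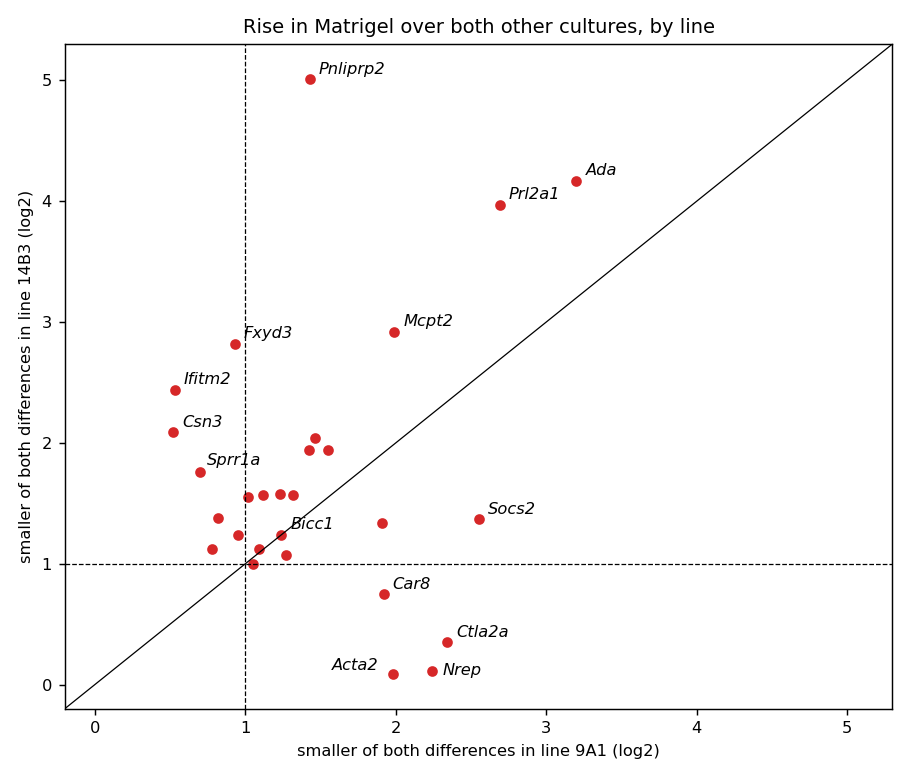
Each point is 1 of the 28 genes, with the smaller of its differences from basal and from aggregate culture in 9A1 on the x axis and in 14B3 on the y axis, in log2 units. Points past both dashed lines at 1 are the 16 genes that pass in each line. Acta2, Nrep and Ctla2a pass in 9A1 and lie at 0.09, 0.11 and 0.35 in 14B3, and Ifitm2 and Csn3 lie at 0.53 and 0.52 in 9A1 and at 2.44 and 2.09 in 14B3.

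Because the whole set was chosen on all arrays, the rule was also applied to 1 line alone and the genes tested in the other line, so that choice and test shared no array. In 9A1 alone the rule took 47 genes, and 17 of these (36.2%) were higher in Matrigel than in both other cultures in 14B3, where 0.904% of all genes were. In 14B3 alone it took 57 genes, and 18 of these (31.6%) were higher than both in 9A1, where 0.855% of all genes were. All genes called either way were among the 28, which were chosen on both lines. The median of the smaller difference in the line not used was 0.36 and 0.39, against -0.22 and -0.23 for all genes, and 16 of the 47 and 16 of the 57 were past 1 in that line too. The count of 18 fell to 8 without Matrigel_9A1 replicate 1.

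The 17 genes chosen in 9A1 and called in 14B3 and the 18 chosen in 14B3 and called in 9A1 had 14 in common: Ada, Car2, Fgl2, Hs3st1, Igfbp3, Il1rn, Ivl, Mcpt2, Pnliprp2, Prl2a1, Serpinb11, Socs2, Tc2n and Vegfc. For the 28 genes, which were chosen on both lines, the values by line are a description. Ada lay 4.17 over basal and 4.17 over aggregates in 14B3, and 3.20 and 3.24 in 9A1. Prl2a1 lay 4.44 and 3.97 above in 14B3, and 2.96 and 2.69 in 9A1. Vegfc lay 2.63 and 1.94 above in 14B3, and 1.59 and 1.55 in 9A1. Bicc1, Fhl1 and S100a14 were chosen in 9A1 and called in 14B3, and Angptl4, Fxyd3, Ifitm2 and Pilra were chosen in 14B3 and called in 9A1. Acta2, Car8, Csn3, Ctla2a, Gkn2, Nrep and Sprr1a were called in neither way. At the level of 1 log2 unit, 16 of the 28 passed in both lines, 5 in 9A1 only and 7 in 14B3 only.

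The Matrigel replicates did not contribute evenly. In 9A1, replicate 1 was above replicate 2 in 21 of the 28 genes, with a median difference of 0.32, where 43.9% of all genes and a median of -0.05 were found. The gap was widest in Prl2a1 (11.77 and 9.37), Tc2n (7.26 and 5.80) and Ivl (9.03 and 7.74). In 14B3, the array labelled 5 days was above the one labelled 10 days in 12 of the 28 (44.9% of all genes), with medians of -0.03 and -0.04. Ada (9.36 at 5 days and 10.97 at 10) and Fhl1 (9.26 and 10.54) were higher in the longer culture and Ivl (9.45 and 8.53) in the shorter. With 1 array each, day and replicate cannot be told apart.

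The genes were set beside lists of related genes and of other cell types, each described by its counts over the genes that are not among the 28. Of all genes measured, 14.1% were above and 14.3% below basal culture in Matrigel, 13.9% were above and 12.7% below aggregates, and 1.3% were higher than both. Of 36 measured prolactin family and trophoblast genes other than Prl2a1, 0 were higher than both by limma (0 at unadjusted p below 0.05). With Prl2a1, the list medians were -0.02 and -0.14, and 35 of the 37 genes had a mean over all arrays under 8.79. The other measured Prl genes lay between -0.10 and 0.41 from basal, and the trophoblast factor genes Elf5, Ascl2 and Tfap2c at -0.05, -0.07 and -0.02. Of 22 genes of adenosine and purine salvage other than Ada, 2 were higher than both, Nt5e (1.43 and 0.55) and Enpp3 (1.32 and 0.65). Nt5e makes extracellular adenosine from AMP and Enpp3 splits extracellular nucleotides. The adenosine kinase gene Adk lay at -0.41 and -0.85, and Pnp, which acts on the product of adenosine deaminase, at 0.44 and -0.84.

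Of 40 gallbladder, bile duct and foregut genes other than Gkn2, 6 were higher than both: Gkn1 (1.09 and 0.73), Tff1 (1.43 and 0.92), Tff3 (1.69 and 0.75), Anxa10 (4.47 and 2.03), Sox17 (0.94 and 0.80) and the water channel gene Aqp1 (1.96 and 0.75). Anxa10, Sox17 and Tff3 are among the genes left out by name. The list was chosen with earlier results of these data known, so nothing is read from its counts. Gastrokines and trefoil factors protect stomach mucus. The lines differed in several of these. Sox17, a transcription factor of the gallbladder, had 11.12 in Matrigel_14B3 against 9.10 and 9.35 in basal and aggregate culture of that line, and in 9A1 it had 6.81 in Matrigel against 6.95 and 6.99. Aqp1 had 9.87 in Matrigel_14B3 against 8.33 in aggregates, and 8.41 against 8.45 in 9A1. Tff3 had 11.38 in Matrigel_9A1 against 10.08 in aggregates, and 9.19 against 8.99 in 14B3. Against basal culture 17 of the 40 were higher and 2 lower, and against aggregates 10 higher and 3 lower. Of 41 proteases and inhibitors of matrix turnover 2 were higher than both, Adamts1 and Plat. Of 43 cytokine and inflammation genes other than Il1rn 1 was, the chemokine gene Cxcl12 (1.27 and 0.93), with 8.94 in Matrigel_9A1 and 7.02 in Matrigel_14B3. Of 41 genes of the Wnt, BMP and TGF-beta response 0 were by limma (1 at unadjusted p below 0.05), and 29 of them had a mean under 8.79.

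Other cell types gave few such genes. Of 22 hepatocyte genes 1, Arg1, was higher than both (0.86 and 0.89). It had 8.29 in Matrigel_14B3 against 6.45 and 6.39 in basal and aggregate culture, and in 9A1 5.45 against 5.57 and 5.56, and within Matrigel the lines differed by 2.84 (adjusted p = 0.000249 by limma). Of the 22, 14 were higher than in basal culture and 9 lower than in aggregates. By limma the counts were 0 of 22 for endothelial, 0 of 23 for neural and neuroendocrine and 0 of 35 for the background guide genes. At unadjusted p below 0.05 they were 0, 0 and 0. The mean over all arrays was under 8.79 in 20 of the 22 endothelial and 22 of the 23 neural genes, so a change in them may not show. Of 18 genes of parietal endoderm and of the gel's own matrix, 1 (Plat) was higher than both, 9 were higher than in aggregates and 11 were lower in aggregates than in basal culture. The laminin gene Lamb1 was at 9.60, 6.51 and 9.10 in basal, aggregate and Matrigel culture. Its Matrigel level was -0.50 from basal (adjusted p = 0.0053 by limma) and 2.59 above aggregates.

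Relatives of the 28 genes were found by shared symbol stem. Of the other measured genes, 0 of 15 Prl, 0 of 4 Csn, 0 of 6 Fxyd and 0 of 3 Vegf genes were called higher than both by limma (0, 0, 0 and 0 at unadjusted p below 0.05). Gkn1, Pilrb1 and Ctla2b, the other measured genes of the Gkn, Pilr and Ctla2 pairs, were called. Ifitm3 of 4 other Ifitm genes, Serpinb9b of 13 other Serpinb genes and S100a13 of 10 other S100a genes were called too. Of 14 other Car genes 1 was called, Car13 (1.17 and 0.52). Car13 lies near Car2 on the chromosome, as Gkn1 does near Gkn2 and Ctla2b (0.73 and 2.24) near Ctla2a. Near-identical relatives such as Ctla2a and Ctla2b may share probe signal, so their values are not independent. Over the 3 measured genes on each side, 27 of 162 neighbours (16.7%) had a Matrigel mean above both others, and 10.9% of all genes did. Apart from the stretch with Sprr1a the genes were scattered, over 17 chromosomes.

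Other probe sets of the same genes gave a further reading. Of the 28 genes 10 had more than 1 probe set, and 10 of the 12 additional probe sets were above both cultures in Matrigel, 7 of them by at least 1. Pnliprp2 gave 4.85 and 3.16 on its other probe set, Socs2 2.14 and 1.77, and Nrep 2.50 and 2.00. Car8 gave 0.72 and 0.23 and Angptl4 0.39 and 0.47, and Csn3 and Acta2 are given above. Whether Acta2, Angptl4, Car8 and Csn3 pass the rule thus depends on the probe set, and these 4 were lost when all probe sets of a gene were averaged. The probe sets used for 9 of the 28 carry a suffix for sequence shared between transcripts.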

How the data were processed

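Total RNA of 12 cultures was measured on Affymetrix mouse 430A arrays. The authors deposited signal intensity per probe set, made with RMA in R 2.3.1 per the submitters' processing notes. Intensities ran from 14.37 to 27318, a linear scale, and their log2 was taken. Symbols came from the platform annotation; of 22690 probe sets 20380 had 1 symbol, 691 several, 1555 none and 64 were controls, and only the first kind was used. The brightest probe set per symbol gave 12393 genes. A mean per group was fitted with limma 3.58.1 (lmFit and eBayes, R 4.3.3), two-sided, with Benjamini-Hochberg adjustment over all genes at 0.05; the fit was tested on simulated data.

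The 28 genes, the lists and the roles were chosen with earlier results of these data known. Named genes were the 20 members with the largest smaller difference, the largest calls per comparison, genes beside the threshold and list genes, with the remaining members by role. Replicate numbers were checked as pairs: differences between replicate 2 and 1 correlated across genes in all 15 pairs of groups (r 0.101 to 0.644), so a model with the number as a block within each line was fitted too and is given where it changes a call. Other alternatives were other scalings, probe set means, a filter on dim genes, array weights, other thresholds and leaving out each array. Promoters are RefSeq (GRCm38.p6). Figures used Python 3.11.15 and matplotlib 3.10.9.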

Additional observations from a re-analysis of the deposited data

Results flagged for a closer look

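A test for a sample far from the others was applied to each of the 28 genes in each culture of 4 arrays, 84 groups in all, and 8 arrays were marked by Dixon's criterion, which chance exceeds in about 1 in 20 groups. In Matrigel these were Prl2a1 in Matrigel_9A1 replicate 2 (9.37, others 11.77 to 12.14), Mcpt2 in Matrigel_14B3 replicate 2 (12.24, others 11.26 to 11.39) and S100a14 in Matrigel_9A1 replicate 1 (8.19, others 8.57 to 8.63). In basal culture they were Ada in basal_14B3 replicate 2 (5.79, others 6.15 to 6.22), Pnliprp2 in basal_14B3 replicate 1 (6.24, others 6.00 to 6.04), Fhl1 in basal_9A1 replicate 1 (9.83, others 8.24 to 8.39) and Igfbp3 in basal_9A1 replicate 2 (8.20, others 9.10 to 9.19). In aggregates it was Bicc1 in aggregate_9A1 replicate 1 (10.45, others 8.43 to 8.60).

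The Matrigel response differed between the lines by limma's interaction test in 8 cases, with adjusted p in brackets. From basal culture the difference of 14B3 from 9A1 was 2.09 in Sprr1a (0.0372), 1.95 in Ifitm2 (0.00912), -1.99 in Ctla2a (0.00912) and -1.90 in Acta2 (0.00656). From aggregates it was 3.59 in Pnliprp2 (0.00588), 1.63 in Ifitm2 (0.0338), -2.46 in Ctla2a (0.00588) and -1.99 in Acta2 (0.00834). The Matrigel arrays in these responses are those that chose the genes, so the values are a description of the 28 genes and support nothing further.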

How the results depend on the processing

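Of the 39 calls on the 28 genes, 30 held on leaving out each of the 12 arrays and 9 ended in some case, and no direction reversed under any alternative run. The rule took 24 to 36 genes on leaving out 1 array, 12 at 1.5 log2 units and 99 at 0.5, and 17 of the 28 passed it in every case of leaving out an array. Quantile normalization and centring took the same 28 genes. The mean of probe sets took 26 (24 of the 28), an offset of 32 took 24, and the arrays of replicate number 1 or 2 alone 28 and 32 (23 and 22 of the 28).

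Among genes above the median level fewer are tested: the rule took 17, and the counts became 5 higher in aggregates, 5 lower in 14B3, 2 lower in 14B3 within Matrigel, 1 lower response in 14B3 from basal and 1 from aggregates, and 10 and 11 genes for the choice in 9A1 and in 14B3. Quantile normalization left 1 gene with a higher response in 14B3 from basal (Sprr1a lost) and 1 from aggregates (Ifitm2 lost), and array weights left 1 from aggregates (Ifitm2 lost, adjusted p = 0.0854). Array weights also ended the line calls of Igfbp3 over all cultures (0.0741) and of Bicc1 within Matrigel (0.177). The cause was not tested.

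Leaving out 1 array gave 5 to 11 genes higher and 3 to 4 lower in aggregates, 3 to 4 higher and 7 to 9 lower in 14B3, and within Matrigel 2 to 4 higher and 4 to 5 lower. Responses from basal were higher in 14B3 for 1 to 4 genes and lower for 2 to 3, and from aggregates 1 to 3 and 2 to 4. The choice in 9A1 gave 13 to 22 calls in 14B3, and that in 14B3 gave 8 to 23 in 9A1. With an array left out its group holds 1 array, assumed to vary like the others.

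With a replicate block within each line, the counts were 9 higher and 3 lower in aggregates, 5 higher and 9 lower in 14B3, 2 and 5 within Matrigel, 2 and 2 for responses from basal, 3 and 2 from aggregates, and 21 and 19 for the choice in 9A1 and in 14B3. The block added S100a14 in aggregates, Pilra between the lines (0.43, adjusted p = 0.0428) and Fxyd3 for the response from aggregates (1.88, 0.0351), and changed no other call.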
